A study of Mus musculus with 35 samples.

Results

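Isyna1, Gpcpd1 and Etnk1 code for enzymes that supply or recycle the head groups of membrane phospholipids. They were followed through 9 passages of mouse ovarian surface epithelial (MOSE) cells on the NIA-15 K cDNA array. All clones annotated with these symbols were taken, which gave 9 clones of 15254 and 3 genes of 7389. Isyna1 has 2 clones, Gpcpd1 has 3 and Etnk1 has 4. The genes had been picked with their differences from passage 2 in view, foremost those of passage 14, so every value of these genes set against p2 below, and each of their p14 values, is a description with no test.

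The cells came from the ovarian surface of adult virgin C57BL/6 females and were kept in serial culture, where they are known to transform spontaneously. RNA was taken early in culture (p2, p5, p7 and p10, where p stands for passage), at p14, and later (p18, p23, p25 and p28), and the labels name no treatment and no engineered genetic change for any passage. On every array it competed with RNA from an entire newborn C57BL/6 male, the same reference throughout. Every passage was hybridized on 4 arrays, 2 direct (d1, d2, MOSE in Cy5) and 2 reverse (r1, r2, MOSE in Cy3), except p7 with 2 direct and 1 reverse, so the 35 arrays are repeated hybridizations of 1 RNA per passage from a single culture and their spread holds no spread between cultures.

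Isyna1 is the inositol-3-phosphate synthase that turns glucose 6-phosphate into inositol 3-phosphate, the first and rate-limiting step of inositol synthesis. Inositol is built into phosphatidylinositol, from which phosphoinositides and the second messenger inositol trisphosphate are made. Gpcpd1 splits glycerophosphocholine, a product of phosphatidylcholine breakdown, into choline and glycerol phosphate. Etnk1 phosphorylates ethanolamine in the first step of the CDP-ethanolamine route to phosphatidylethanolamine.

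The promoters of Isyna1 and Etnk1 are shown because the values of these genes ran in opposite directions over the passages in 1 clone of Etnk1 and both clones of Isyna1. They are the 300-base RefSeq windows around the transcription start on GRCm38.p6, both on the plus strand, chr8:70594231-70594530 for Isyna1 and chr6:143166980-143167279 for Etnk1. Gpcpd1 is named only. Capitals mark matches on either strand to the CCAAT box, the GC box letters GGGCGG, the E-box letters CACGTG, the TATA box letters TATAAA and the letters TGACG from the cyclic AMP response element.
Isyna1: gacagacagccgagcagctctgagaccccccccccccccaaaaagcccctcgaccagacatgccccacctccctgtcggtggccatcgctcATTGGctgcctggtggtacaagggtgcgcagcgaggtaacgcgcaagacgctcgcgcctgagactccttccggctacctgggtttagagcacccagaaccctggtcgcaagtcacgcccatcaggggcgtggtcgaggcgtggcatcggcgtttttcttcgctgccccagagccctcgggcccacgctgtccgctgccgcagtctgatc
Etnk1: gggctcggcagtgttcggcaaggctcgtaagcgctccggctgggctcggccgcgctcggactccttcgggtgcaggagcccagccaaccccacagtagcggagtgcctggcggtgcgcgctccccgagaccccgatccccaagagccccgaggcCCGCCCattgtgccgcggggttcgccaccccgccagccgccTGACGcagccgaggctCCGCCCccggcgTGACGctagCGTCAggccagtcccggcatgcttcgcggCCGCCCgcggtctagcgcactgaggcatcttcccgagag
The Isyna1 window held a single match, ATTGG, the reverse complement of CCAAT, which occurs on either strand in 37.4% of 32851 promoters of the same length. The Etnk1 window held 3 matches to GGGCGG, read as CCGCCC, and 3 to TGACG, of which 1 was on the reverse strand as CGTCA. These motifs occur in 35.7% and 20.8% of promoters. CACGTG (7.15% of promoters) and TATAAA (13.6%) were in neither window, and no matches overlapped. The G and C content was 66% for Isyna1 and 73.7% for Etnk1. No binding was measured, so the matches describe the letters alone.

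Values are log2(MOSE/reference) after print-tip loess and scaling of the arrays to a common spread, so 0 means equal signal in cells and reference. Array medians ran from 536 to 4227 for MOSE and from 637 to 4546.5 for the reference, and 98.8% to 99.6% of clones were above background in both channels. The median correlation between arrays of a passage ranged from 0.343 at p18 to 0.704 at p5. Before scaling, the spread of the ratios (median absolute deviation from 0 of the log2 ratios, on the scale of an SD) was 0.309 at p2, 0.316 at p7, 0.424 at p14, 0.447 at p28 and 0.619 at p23, so scaling widened the ratios of p2 and p7 and narrowed those of p23. Array names and numbers formed several series, with p7, p14, p23 and 3 of the p25 arrays in the same one and p2 in another. The p5 and p28 arrays each formed a series of their own, where series and passage cannot be told apart. Of 20 ovarian surface and mesothelial markers 13 were on the array. From p2 to p28 their median was 1.93, 1.26, 1.69, 2.24, 1.62, 1.45, 0.84, 1.84 and 1.28, with no steady course. Wt1, their defining transcription factor, was at 5.03 at p2 and 3.18 at p28, and Krt7, Krt19, Podxl, Gata4, Gata6 and Bnc1 were also lower at p28. The epithelial cadherin Cdh1 was at -0.87 and -0.40, and Msln (0.80 and 2.13), Krt8, Krt18, Cdh2 and Lgals7 were also higher at p28. Fibroblast markers had a median of -0.86 at p2 and -0.38 at p28 (8 of 12 measured), and leukocyte markers of -1.18 and -0.72 (5 of 13). In bulk RNA, fewer cells of a type and less RNA per cell cannot be told apart, and the part of these marker differences in the results below was not tested.

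Isyna1 had one of the highest ratios of the whole array through p25 while its level came down over the passages. The mean of its 2 clones was 5.95 at p2, a 61.9-fold signal over the newborn reference that ranked 3 of 7389 genes. Its rank stayed between 2 and 5 up to p10, was 24 at p14 and lay between 6 and 11 from p18 to p25. At p28 it was 1.29, or 2.45-fold, at rank 72. All 35 arrays measured both clones above background, although the scanner program marked H3146A04 as not found on p5 array d1. No spot mean reached the scanner ceiling. Single saturated pixels were not checked, and the p2 signals were as high as 61592 for H3041D03 and 59231 for H3146A04.

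For clone H3041D03 the arrays gave 5.15, 4.83, 7.18 and 7.04 at p2, with the reverse pair well above the direct pair. At p5 they gave 4.01, 3.86, 4.60 and 4.49, at p7 5.07, 5.17 and 3.73, and at p10 5.00, 4.41, 4.12 and 4.62. These 3 passages could not be ordered by their arrays, and the upper values of p7 and p10 reached into the p2 range. The p14 arrays gave 1.98, 2.01, 1.80 and 2.69, all below every array of p5, p7 and p10. At p18 the direct arrays gave 1.71 and 1.55 and the reverse arrays 5.11 and 3.68, the widest spread of this clone. The arrays of p23 gave 0.68, 2.91, 1.25 and 1.16, those of p25 2.18, 2.09, 3.50 and 2.65, and those of p28 1.38, 0.99, 1.20 and 1.23. From p14 on the passages overlapped, except that p28 lay below every array of p14, p18 and p25.

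Clone H3146A04 ran alongside it, with a Pearson r of 0.986 over the 9 passage means and a mean gap of 0.26. Its passage means were 5.85, 4.37, 3.92 and 4.17 from p2 to p10, 2.03 at p14, and 2.73, 1.98, 2.75 and 1.39 from p18 to p28. Its p2 arrays split by dye as well, into 4.74 and 4.47 direct and 7.05 and 7.15 reverse.

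**Figure D1:**
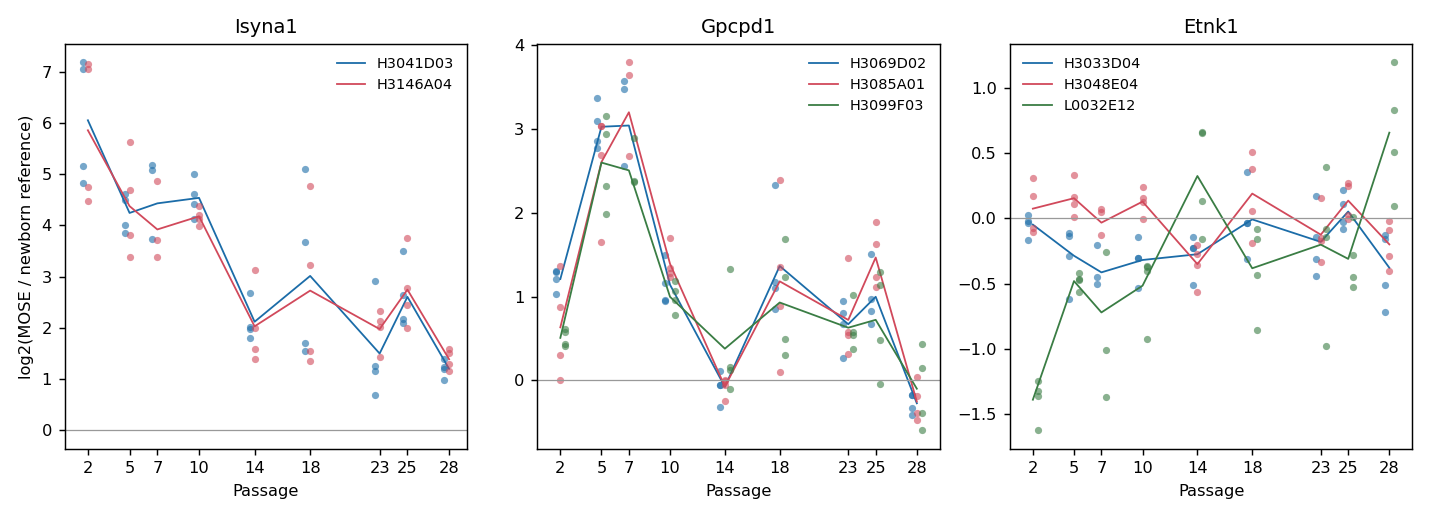
Log2(MOSE/reference) against passage for the clones of Isyna1, Gpcpd1 and Etnk1, with points for single arrays and lines through the passage means (mean of the 2 dye orientations). Isyna1 runs from about 6 at p2 to 1.20 and 1.39 at p28, Gpcpd1 peaks at p5 and p7, and of Etnk1 only clone L0032E12 climbs; the dim Etnk1 clone H3118C10 is not drawn.

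Against p2, Isyna1 was lower by 3.93 (SE 0.54) and 3.82 (SE 0.68) on the log2 scale at p14 in its 2 clones, and the p28 differences were -4.85 (SE 0.51) and -4.47 (SE 0.59). These sizes depended on the scaling. Without scaling between arrays the p28 differences were -3.31 and -2.90, a 9.90-fold and a 7.48-fold lower ratio in place of 28.8-fold and 22.1-fold, and in the deposited table they were -3.41 and -3.03. Within the array series of p2, the p18 arrays d1, r1 and r2 were fitted against p2 with the dye orientation as a term. The differences were -2.94 (SE 0.34) and -3.08 (SE 0.34). The arrays themselves overlapped, with p18 r1 at 5.11 and 4.76 in the 2 clones, above p2 d2 at 4.83 and 4.47. Without the dye term and with all 4 p18 arrays, the differences were -3.04 (SE 0.87) and -3.13 (SE 0.90).

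**Figure D2:**
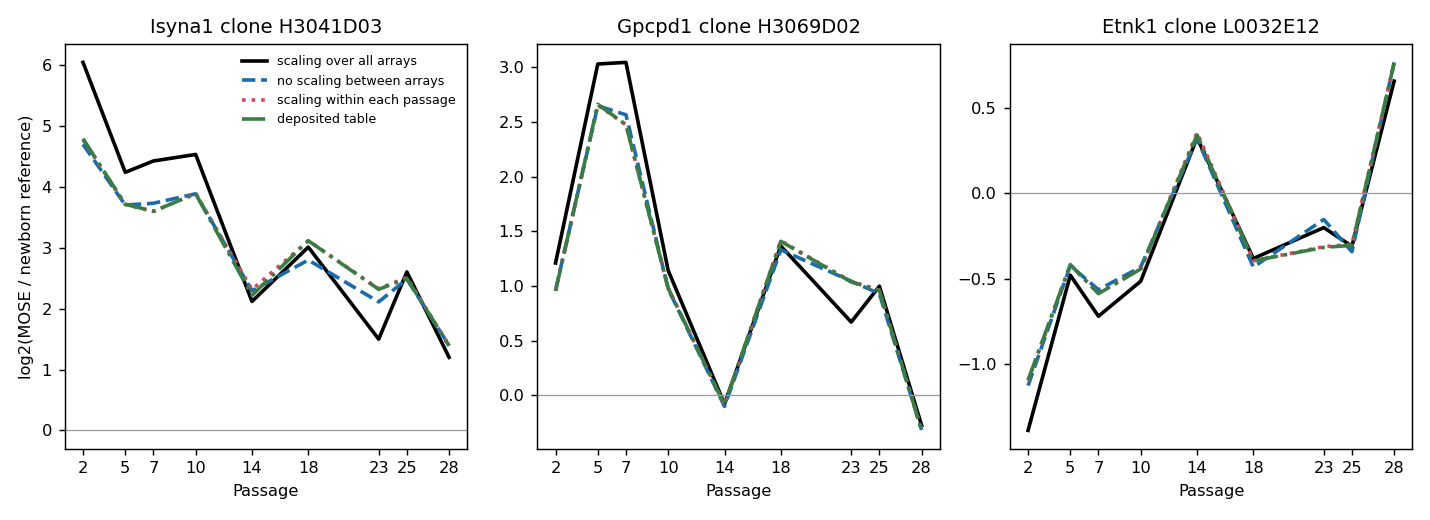
Passage means of log2(MOSE/reference) for 1 clone each of Isyna1, Gpcpd1 and Etnk1 with scaling over all arrays (black), without scaling, with scaling within each passage and in the deposited table. The shapes are broadly alike, but Isyna1 at p2 stands at 6.05 with scaling over all arrays and at 4.70 without scaling, and at p23 at 1.50 and 2.11. The order of p14 and p23 for Isyna1, and of p2 and p23 for Gpcpd1, differs between these settings.

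The channel signals were also read apart. The MOSE signal of H3041D03, as log2 above the median of its array, was 4.43 at p2 and 4.14 at p10, then 2.63 at p14 and 2.65 at p18. It was 3.43 and 3.54 in the p23 and p25 cells and 2.02 at p28, a span of 2.41, against a span of 4.85 in the scaled ratios. The MOSE signal was thus higher at p23 than at p14, although the ratio scaled over all arrays was lower at p23 (1.50) than at p14 (2.12). That order depended on the scaling. The p23 and p14 ratios were 2.11 and 2.29 without scaling, 2.33 and 2.31 with scaling within each passage, and 2.32 and 2.22 in the deposited table. The reference signal of the same spots spanned 0.41. In raw units, the MOSE signal was between 39875 and 61592 on the p2 arrays and between 1969 and 5972 on the p28 arrays. Raw units are not adjusted for the brightness of each array, which differed between arrays. H3146A04 had a MOSE span of 2.42 and a reference span of 0.95. Its p23 and p14 ratios were 1.98 and 2.03 with scaling over all arrays, and 3.09 and 2.14 without scaling.

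**Figure D3:**
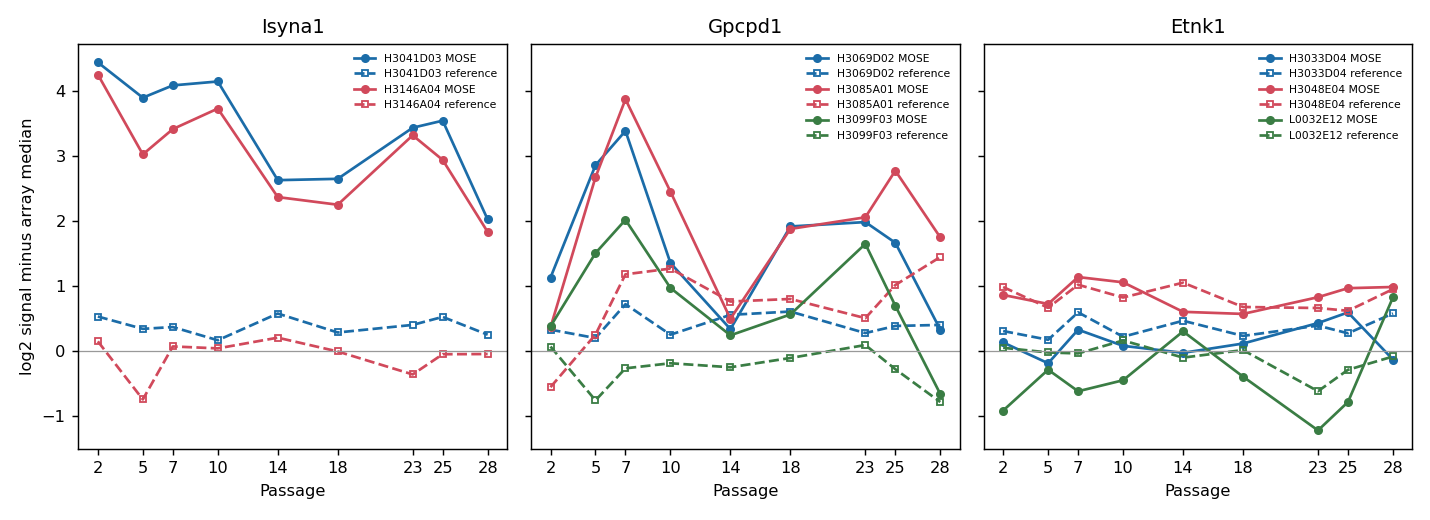
Mean log2 signal above the array median by passage in the MOSE channel (solid lines) and the reference channel (dashed lines), over arrays above background. The MOSE signal of Isyna1 drops between p10 and p14, is higher again at p23 and p25 and lowest at p28. Its reference signal moves less, with a span of 0.41 in H3041D03 and 0.95 in H3146A04. The MOSE signal of Gpcpd1 peaks at p7.

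Differences between passages other than p2 and p14 were tested in 2 ways. They are not independent of the choice of the genes, since the differences of later passages from p2, that of p28 among them, were in view too. First, p18, p23, p25 and p28 were set against p5, p7 and p10 with 1 value per passage, in limma at an adjusted p (Benjamini-Hochberg over all clones) under 0.05. Of the 9 member clones, 2 passed, both of Isyna1 and both lower, beside 2.98% of all clones called in either direction and 1.77% called lower. H3041D03 fell from 4.40 to 2.08, a difference of -2.32 (SE 0.41, adjusted p = 0.0276), and H3146A04 fell from 4.16 to 2.21 (-1.95, SE 0.32, adjusted p = 0.0251). The groups did not overlap in either clone, and the exact two-sided permutation test over the 7 passages gave p = 0.0571 for each, the smallest it can give. Clones H3099F03 of Gpcpd1 and L0032E12 of Etnk1 had the same p in that test without passing in limma. The share of all clones whose groups did not overlap was not counted, so nothing is read from the lack of overlap. Both calls were lost without scaling (-1.58, adjusted p = 0.0986, and -1.13, adjusted p = 0.212), with the same direction. Leaving out p5, p7, p10 or p23 also ended both calls (adjusted p from 0.0583 to 0.101), as leaving out p28 did for H3041D03 (-2.03, adjusted p = 0.0531). H3146A04 was still called without p28 (-1.67, adjusted p = 0.0363).

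Second, p23 and p25 were set against p7 within their common array series, in limma with the dye orientation as a term and an adjusted p under 0.01. The p14 arrays of this series were part of the same fit, so its residual spread and dye term rest partly on them. At p23, 4 of the 9 member clones were called, all lower, beside 2.17% of all clones (1.63% lower). Clone H3041D03 of Isyna1 fell by 3.14 (SE 0.53, adjusted p = 0.00469), and H3146A04 had -2.07 (SE 0.48, adjusted p = 0.0224). The call of H3041D03 was lost without p7 d1 (adjusted p = 0.0312), p7 d2 (0.0299), p23 d1 (0.0186), p23 r1 (0.0150) or p23 r2 (0.0144), and without scaling (-1.64, adjusted p = 0.0239). With scaling within each passage and in the deposited table, no member clone was called from p7 to p23. In the MOSE channel alone, the signal above the array median was 4.05 at p7 and 3.43 at p23 for H3041D03, and 3.50 and 3.31 for H3146A04, so the difference in signal was much smaller than that of the scaled ratios. At p25 neither Isyna1 clone passed (-2.07, adjusted p = 0.0998, and -1.15, adjusted p = 0.361).

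Gpcpd1 had another course, with a peak at p5 and p7. The mean of its 3 clones was 0.78 at p2, stood at 2.75 at p5 and 2.92 at p7 (7.56-fold over the reference) and was back at 1.18 at p10. It was lowest at p14 (0.07) and p28 (-0.21), with 1.16, 0.67 and 1.06 in the 3 passages between them. Its rank among 7389 genes was 445 at p2, 29 at p7 and 5622 at p28. The clones followed each other with a Pearson r of 0.95 to 0.96 over the 9 passages.

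On single arrays, H3069D02 gave 1.30, 1.03, 1.30 and 1.21 at p2. It gave 2.77, 2.86, 3.38 and 3.10 at p5 and 3.47, 3.58 and 2.56 at p7, all above every array of the other 7 passages. At p10 the arrays gave 1.49, 1.16, 0.96 and 0.95, close to those of p2. At p14 they gave -0.05, -0.32, -0.06 and 0.11, and at p28 -0.42, -0.17, -0.33 and -0.18, so that cells and reference had about equal signal. The p18 array r1 stood out at 2.33 beside 0.86, 1.10 and 1.17. The p23 arrays (0.27 to 0.94) and the p25 arrays (0.68 to 1.51) lay between the peak and the p14 values.

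H3099F03 had its arrays between 2.32 and 3.15 at p5 apart from d2 at 1.99, and between 2.37 and 2.90 at p7, again above all others. H3085A01 peaked at p7 with 3.65, 3.80 and 2.68, but its p5 array d1 (1.66) fell among the p18 and p25 arrays. H3085A01 was at background on array d2 of p2 and array r2 of p28. In the MOSE channel H3069D02 stood 1.13 above the array median at p2, 3.39 at p7, 0.34 at p14 and 0.33 at p28, while the reference signal stayed between 0.20 and 0.69. Its MOSE signal was 1.91 at p18, 1.98 at p23 and 1.66 at p25, above that of p2. With scaling over all arrays, the p23 and p25 ratios of this clone lay below the p2 ratio. The p23 difference from p2 kept its sign in 4 of 7 alternatives and the p25 difference in 5 of 7. In the deposited table these differences were 0.08 and 0.0045.

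Within the array series, all 3 clones of Gpcpd1 fell from p7 to p23. H3069D02 fell by 2.53 (SE 0.27, adjusted p = 0.000441), H3085A01 by 2.60 (SE 0.28, adjusted p = 0.000433) and H3099F03 by 1.97 (SE 0.34, adjusted p = 0.00572). The MOSE signal above the array median went from 3.39 to 1.98, from 3.88 to 2.05 and from 2.13 to 1.65 in these clones, smaller differences than those of the scaled ratios. Without scaling, the first pair was still called (-1.56, adjusted p = 0.00882, and -1.69, adjusted p = 0.00157), and H3099F03 was not (-1.22, adjusted p = 0.0761). With scaling within each passage, which gave values close to those of the deposited table, the differences of -1.56, -1.57 and -1.14 missed the threshold (adjusted p = 0.0275, 0.0545 and 0.199). The calls of H3069D02 and H3085A01 were kept when any single array of the series was left out, while that of H3099F03 was lost without p7 d1, d2 or r1 or p23 d1, r1 or r2 (adjusted p from 0.0103 to 0.0363).

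From p7 to p25, H3069D02 fell by 2.20 (SE 0.29, adjusted p = 0.00348), the only call among the 9 member clones beside 0.361% of all clones. H3085A01 (-1.79, adjusted p = 0.0114) and H3099F03 (-1.97, adjusted p = 0.0203) had differences of like size that missed the threshold. The call of H3069D02 was lost without scaling (-1.63, adjusted p = 0.0295) and without p7 d1, p7 d2, p25 d1 or p25 d2 (adjusted p from 0.0196 to 0.0265). H3085A01 passed without p7 r1, p23 d1 or p23 d2 (adjusted p from 0.00545 to 0.00718). Over all alternatives run, Gpcpd1 clones gained 8 such calls, these included. No member clone was called from p7 to p25 with scaling within each passage or in the deposited table. With 1 value per passage, p18 to p28 against p5 to p10, no Gpcpd1 clone passed: the differences were -1.71, -1.62 and -1.49 (adjusted p = 0.131, 0.128 and 0.0928). In H3069D02 and H3085A01 the p10 mean lay within the range of the later passage means, and in H3099F03 it lay above all of them. With p10 left out, clones H3069D02 (-2.35, adjusted p = 0.0425) and H3099F03 (-2.01, adjusted p = 0.0273) passed. These were the only 2 calls that Gpcpd1 clones gained in this comparison under the alternatives run. Against p2, H3069D02 was higher by 1.82 at p5 and by 1.83 at p7 and differed by -1.29 at p14 and -1.48 at p28. H3085A01 was higher by 1.97 and 2.57 at p5 and p7 and differed by -0.71 and -0.89 at p14 and p28. H3099F03 was higher by 2.09 and 2.00 and differed by -0.13 and -0.61, and its p14 difference kept its sign in 5 of 7 alternatives.

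The clones annotated as Etnk1 did not tell the same story, so they are given apart. Clones H3033D04 and H3048E04 had about equal signal in cells and reference at every passage. Their passage means lay between -0.41 and 0.05 and between -0.35 and 0.19, and no array exceeded 0.72 in size. Clone L0032E12 started lower and climbed. Its arrays gave -1.62, -1.36, -1.24 and -1.32 at p2, and -0.16, 0.14, 0.65 and 0.66 at p14. At p28 they gave 0.51, 0.09, 1.19 and 0.82, so p2 did not overlap with either passage.

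Between these, L0032E12 had means of -0.48 at p5, -0.72 at p7, -0.52 at p10, -0.38 at p18, -0.20 at p23 and -0.31 at p25, whose arrays overlapped. Its difference from p2 was 1.71 (SE 0.20) at p14 and 2.04 (SE 0.22) at p28, and without scaling 1.45 and 1.89. Its MOSE signal was 0.91 below the array median at p2 and 0.82 above it at p28, and the reference signal was 0.05 and -0.08. At p23 the MOSE signal was 1.22 below the median, under that of p2, with the reference at -0.62, so the channel and the ratio did not order these passages alike. Clone H3118C10 was above background in both channels on only 17 of 35 arrays and was marked as not found by the scanner program on 29, so its ratios carry no usable level and no fold is given.

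No Etnk1 clone passed either of the tests between passages other than p2 and p14. For L0032E12, p18 to p28 differed from p5 to p10 by 0.51 (SE 0.24, adjusted p = 0.299), although the passage means of these groups did not overlap (exact permutation p = 0.0571). The p28 mean of 0.66 stood above those of the other 3 later passages, and without p28 the difference of L0032E12 was 0.27 (adjusted p = 0.263). From p7 it differed by 0.56 at p23 (adjusted p = 0.129) and by 0.55 at p25 (adjusted p = 0.282). Over all 9 passages, p2 and p14 included, L0032E12 had a Pearson r of -0.90 and -0.91 with the Isyna1 clones and of -0.42 to -0.61 with those of Gpcpd1, and the gene means of Isyna1 and Gpcpd1 had an r of 0.55. These correlations describe 9 serial RNAs that share a reference and a scaling.

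Against p2, 3 of the 9 clones were past the study's threshold at p14 (Isyna1 H3041D03 and Gpcpd1 H3069D02 lower, Etnk1 L0032E12 higher), where 1.34% of all clones were (0.721% higher and 0.623% lower). At p28, 4 clones were past it, those and Isyna1 H3146A04, where 2.98% of all clones were (1.5% higher and 1.48% lower). The genes were chosen on these contrasts, and nothing is read from the shares.

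Around the members, 107 of 189 other genes listed for inositol, phosphoinositide, ethanolamine, choline and phospholipid metabolism were on the array. The lists were chosen with earlier results of these data known, so calls in them against p2 are not independent support. Of these genes 1 was called at p14, p28 and from p7 to p23, Itpr1, an inositol trisphosphate receptor that releases calcium from the endoplasmic reticulum, and none was called higher. The receptor gene Itpr2 had 0.30 at p14, -0.02 at p28 and 0.60 from p7 to p23 and was not called. Among all 7389 genes, 84 were called higher and 67 lower at p14, 169 and 158 at p28, and 62 and 158 from p7 to p23. Without background subtraction Cds2 was also called lower at p14 and p28, and Bpnt2 and Pcyt1a from p7 to p23. Cds2 was called at p14 and p28 with dim spots left out too, and Pikfyve in p18 to p28 against p5 to p10 with normexp. The Itpr1 clone H3062H07 went from 2.47 at p2 to 0.44 at p14 and 0.12 at p28. It fell by 2.03 at p14 (SE 0.27, adjusted p = 0.00522) and by 2.34 at p28 (SE 0.30, adjusted p = 0.00243). It fell by 1.10 from p7 to p23 (SE 0.21, adjusted p = 0.00965), a call that was lost without scaling (-0.40, adjusted p = 0.427), with scaling within each passage (-0.41, adjusted p = 0.467), in the deposited table (-0.41, adjusted p = 0.450), with normexp (-1.13, adjusted p = 0.0141), with global loess (-1.26, adjusted p = 0.0132), without the dye term, with a replicate block (adjusted p = 0.0256) and when any array of p7, p14 or p23, or p25 d2, was left out (adjusted p from 0.0122 to 0.0612). From p7 to p25 (-0.89, adjusted p = 0.0804) and in p18 to p28 against p5 to p10 (-0.89, adjusted p = 0.0700) it was not called. In the latter it was called under 5 alternatives, among them without background subtraction (adjusted p = 0.0370), with normexp (0.0378), with dim spots left out (0.0457) and without p18 (0.0465). The p28 call held under every alternative run, and the p14 call was lost with scaling within each passage (-1.47, adjusted p = 0.0126), with a replicate block (adjusted p = 0.0227) and without p2 r1 (adjusted p = 0.0148), p2 r2 (0.0165) or any 1 of the p14 arrays (adjusted p from 0.0170 to 0.0203).

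The median difference of the 107 genes was -0.06 at p14, -0.03 at p28 and 0.01 in p18 to p28 against p5 to p10, next to 0.03, 0.04 and 0.02 for all 7389 genes. Next to Isyna1 in inositol supply, the inositol monophosphatase Impa1, which frees inositol from its phosphate, had -0.55 at p28, and the sodium and inositol cotransporter Slc5a3 had -0.18. The inositol phosphate kinases Ip6k2 and Ippk had -0.46 and 0.32. Cds2, which makes CDP-diacylglycerol, had -0.80, and the phosphatidylinositol synthase Cdipt had -0.05. Among phosphoinositide phosphatases, Mtmr4 had -1.28 at p28 and -0.01 in p18 to p28 against p5 to p10, and Mtmr6 had -0.40. None of these passed the test as reported, and Cds2 passed it under the alternatives named above.

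In the ethanolamine branch, Pemt, which methylates phosphatidylethanolamine to phosphatidylcholine, had 0.49 at p28, the decarboxylase Pisd had -0.30, and the phosphatidylserine synthase Ptdss1 had 0.04. In the choline branch, the choline dehydrogenase Chdh had 0.59, the choline transporter Slc44a1 had -0.12 and Pcyt1a, which makes CDP-choline, had -0.19. Beside Gpcpd1, the phospholipases Pla2g4a and Pla2g6 had 0.24 and -0.03, and Pafah1b3 had -0.05. Among acyltransferases, Agpat3 had 0.91, Gpat4 0.48 and Gpam -0.55. None of these passed the test at p28.

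**Figure D4:**
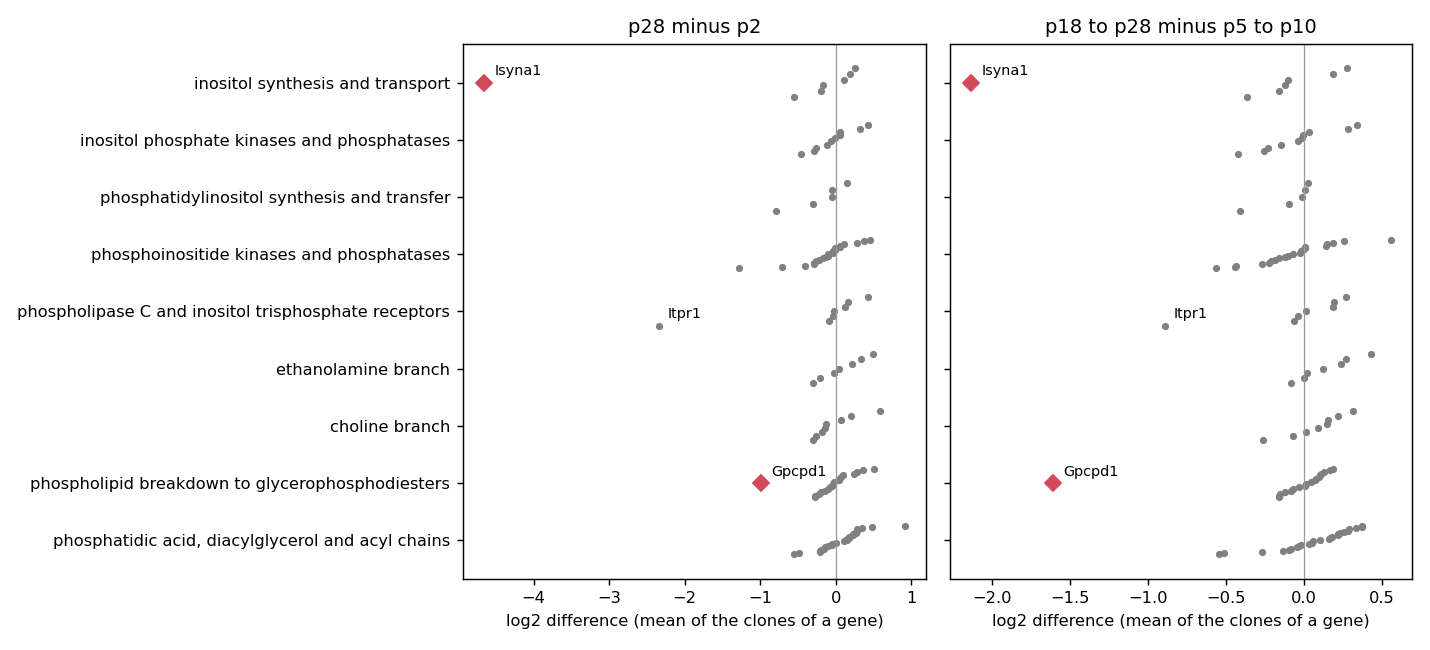
Log2 differences of the measured genes of 9 pathway lists, p28 minus p2 on the left and p18 to p28 minus p5 to p10 on the right, each point a gene (mean of its clones). Isyna1 and Gpcpd1 (diamonds) were chosen for their differences from p2; among the other genes Itpr1 lies farthest out, at -2.34 on the left, and the rest lie between -1.28 and 0.91 there. Etnk1 is left out because its clones differ.

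The genes whose course over the 9 passages was most like that of Isyna1, among 1328 with a span of at least 1 on the log2 scale, were Anapc1 (Pearson r 0.99), a subunit of the anaphase-promoting complex, the membrane protein Tmem176b (0.98), App (0.98), the amyloid precursor protein, Itpr1 (0.97) and the deubiquitinase Usp33 (0.97). Anapc1 went from 1.76 at p2 to 0.32 at p28 and Tmem176b from 2.95 to 0.31. For Gpcpd1 they were Resf1 (0.96), Glcci1 (0.95), the fatty acid elongation enzyme Hacd3 (0.95), the ribonuclease Rnaset2a (0.93) and the estrogen receptor Esr1 (0.93). Esr1 was at 0.49 at p2, 1.71 at p5, 1.89 at p7 and 0.01 at p28.

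For the mean of the 4 Etnk1 clones they were Actn4 (0.87), Degs1 (0.86), Ahcyl2 (0.84), Tax1bp3 (0.84) and Ecm1 (0.83), but that mean is led by the dim clone. For L0032E12 alone, picked after its values were seen, they were Hmgb2 (0.98), a chromatin protein, the nuclear import factor Kpna2 (0.97), Banf1 (0.97), the condensin subunit Ncapd2 (0.96) and the ribosomal protein Rps2 (0.95). Hmgb2 went from -2.35 at p2 to -0.06 at p28. The likeness is a description over 9 passages that share arrays, reference and scaling.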

How the data were processed

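The authors deposited GenePix scanner output for each array, with mean fluorescence intensity, local background and a spot flag for both channels, and a table of log2 ratios of 15023 rows, which per the study's methods was made by background correction, loess and scale adjustment. Whether the scale adjustment ran over all arrays is not given in the sources used here.

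From the deposited intensities, local background was subtracted (floor 0.5), print-tip loess was fitted in 32 blocks, arrays were scaled over all 35 and reverse arrays were turned, with R 4.3.3 and limma 3.58.1. Direct and reverse arrays were averaged apart and then together to give a passage value. Symbols came from the array annotation, brought up to date for 856 clones, and 5156 clones have none. The deposited log2 ratios were paired with clones by row order and a Spearman correlation over 0.5 (14758 rows, 98.2%, and 8 of the 9 member clones).

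limma with Benjamini-Hochberg adjustment over all clones was used throughout, at 0.01 for arrays and 0.05 for passage means. Since arrays are technical, p-values on arrays measure the spread between hybridizations. The models were tested on simulated data. Figures were drawn with Python 3.11.15.

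Named genes were all member clones, of each pathway list every gene called and those with the largest p14 differences from p2, and for each member the 5 genes most alike in course, above background on at least 30 arrays. The members and lists were chosen with earlier results of these data known. Alternatives covered background, loess, scaling, dim spots, the deposited table, the model terms and single arrays or passages left out.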

Additional observations from a re-analysis of the deposited data

Results flagged for a closer look

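In 72 groups of 4 arrays and 9 groups of passage means of the member clones, 2 values stood apart by Dixon's test at 95%, which by chance marks about 1 in 20 groups. Array d1 of p10 gave -0.93 for Etnk1 clone L0032E12, while the other 3 arrays lay between -0.40 and -0.36. Array r1 of p18 gave -14.7 for Etnk1 clone H3118C10, while the others lay between -0.30 and 1.28, on a clone near background.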

How the results depend on the processing

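No member difference from p2 that passed the threshold, and no tested member call, changed direction under the alternatives run. For Isyna1, p18 to p28 against p5 to p10, the differences of H3041D03 and H3146A04 missed the threshold with global loess (-2.08 and -1.73), without scaling (-1.58 and -1.13), with scaling within each passage (-1.40 and -0.995) and in the deposited table (-1.41 and -1.02). With single passages left out they ran from -2.63 to -2.03 and from -2.13 to -1.67, and for Gpcpd1 from -2.35 to -1.39 (H3069D02), -2.13 to -1.22 (H3085A01) and -2.01 to -1.21 (H3099F03). The cause of these losses was not tested.

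The number of clones called moved more. At p14 against p2, 205 became 319 without background subtraction, 131 with global loess, 133 with scaling within each passage, 324 without dim spots and 519 in a single fit of 35 arrays, and 48 to 116 with an array left out. At p28 against p2, 455 became 262 with global loess, 256 with scaling within each passage, 699 without dim spots and 806 in a single fit, and 169 to 310 with an array left out. At p23 against p7, 331 became 549 without background subtraction, 55 without scaling, 20 with scaling within each passage, 27 in the deposited table and 206 without the dye term, and 77 to 521 with an array left out. At p25 against p7, 55 became 123 without background subtraction, 83 with normexp, 10 without scaling, 4 with scaling within each passage, 97 without dim spots, 5 in the deposited table and 33 without the dye term, and 9 to 66 with an array left out. In p18 to p28 against p5 to p10, 455 became 743 without background subtraction, 818 with normexp, 27 with global loess, 8 without scaling, 4 with scaling within each passage, 718 without dim spots and 39 in the deposited table, and 62 to 356 with a passage left out. The share of calls that were higher went from 24.8% to 36.4% without scaling and 40% within passages at p23, from 32.7% to 50% at p25 (60% in the deposited table), and from 40.7% to 25% in the later passages.

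Array labels (d1, d2, r1, r2) are shared between passages, but arrays of the same label correlated in their deviations only between -0.07 and 0.29, so they were not taken as pairs. With the label as a replicate block the calls went to 4 at p14, 267 at p28 and 211 at p23, and at p23 Isyna1 H3041D03 (adjusted p = 0.0101) and Gpcpd1 H3099F03 (adjusted p = 0.0157) missed the threshold. Itpr1 missed it at p14 with the block (adjusted p = 0.0227).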
